A study of Mus musculus with 12 samples.

Results

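The comparison described here is of mouse hearts at postnatal day 21 (P21), 3 RNA sequencing libraries labelled Csrp3 knockout against 3 wild-type libraries. These are 6 of the 12 samples of the series. The members were taken from the sample titles, which give the genotype, the day and a number for each sample. No other allele, drug or agent is named in the labels of either group, and strain and sex are not given there. Nothing states that replicates are separate animals, so p-values reflect only how far these libraries differ, part of which may be technical. The remaining 6 samples are of the same genotypes at postnatal day 1 (P1). Values are FPKM, a fragment count divided by gene length and by a scaled sequencing depth. The scaled depth is the number of reads in genes times a factor per library. This factor was 0.761, 0.605 and 0.886 for P21 wild-type libraries 1 to 3, against 0.857, 0.771 and 0.944 for knockout-labelled libraries 1 to 3. The part of these factors in the shifts after rescaling, given below, was not tested. Of 56748 genes in the table, 12036 reached an FPKM of 1 in 3 or more of these 6 libraries and were tested.

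Csrp3 encodes muscle LIM protein, which sits at the Z disc, the plate that anchors the thin filaments of neighbouring sarcomeres, and is also found in the nucleus. It has been linked to the sensing of stretch, and mice without it are a known model of dilated cardiomyopathy. A heart under load switches on a set of genes that mark hypertrophy and wall stress, among them the natriuretic peptides and skeletal alpha-actin, together with genes of the extracellular matrix. In the series title Csrp3 is tied to cell cycle entry through the ubiquitin ligase Rnf5 and the stress kinase p38.

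The heart muscle genes Myh6, Myl2, Tnnt2, Actc1 and Ryr2 were all detected in each of the 6 libraries, with a summed FPKM of 16130 to 29376. Reads in genes numbered 10.2, 9.67 and 15.1 M (megareads) in wild-type libraries 1, 2 and 3. The libraries labelled knockout had 13.7, 10.8 and 13.1 M. The libraries did not sort by genotype. Wild-type library 3 correlated at 0.968 and 0.962 with libraries 1 and 3 labelled knockout, but at 0.909 and 0.897 with wild-type libraries 1 and 2 (across genes, log2 scale). Wild-type library 2 came closer to library 2 labelled knockout, at 0.937, than to its own group, at 0.918 and 0.897. Library 2 labelled knockout correlated at 0.941 with wild-type library 3 and at 0.956 and 0.933 with its own group. Its lowest correlation, 0.914, was with wild-type library 1. The library names of wild-type libraries 1 and 2 end in a letter R that the others lack, which the labels do not explain.

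Wild-type libraries 1 and 2 and library 2 labelled knockout also leaned to short genes. Over the 600 tested genes of 500 to 1000 bases, the median level relative to the mean of the 6 libraries was 0.26, 0.79 and -0.33 on the log2 scale in wild type. In those labelled knockout it was -0.31, 0.21 and -0.44. In this lean, though not in the correlations above, library 2 labelled knockout stood with both wild-type libraries 1 and 2. Wild-type library 3 stood with libraries 1 and 3 labelled knockout. Results are therefore also given within these sets, which share no library: libraries 1 and 3 labelled knockout minus wild-type library 3 (the long set), and library 2 labelled knockout minus wild-type libraries 1 and 2 (the short set). With 1 library on a side neither set has a test of its own here. The labels give no sex. Xist, the RNA of the inactive X chromosome of females, had 16.6, 5.54 and 21.3 FPKM in wild type and 19.6, 0.188 and 19.4 in the other group, so library 2 labelled knockout stood apart in it, and in the short set this cannot be told apart from genotype.

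**Figure D1:**
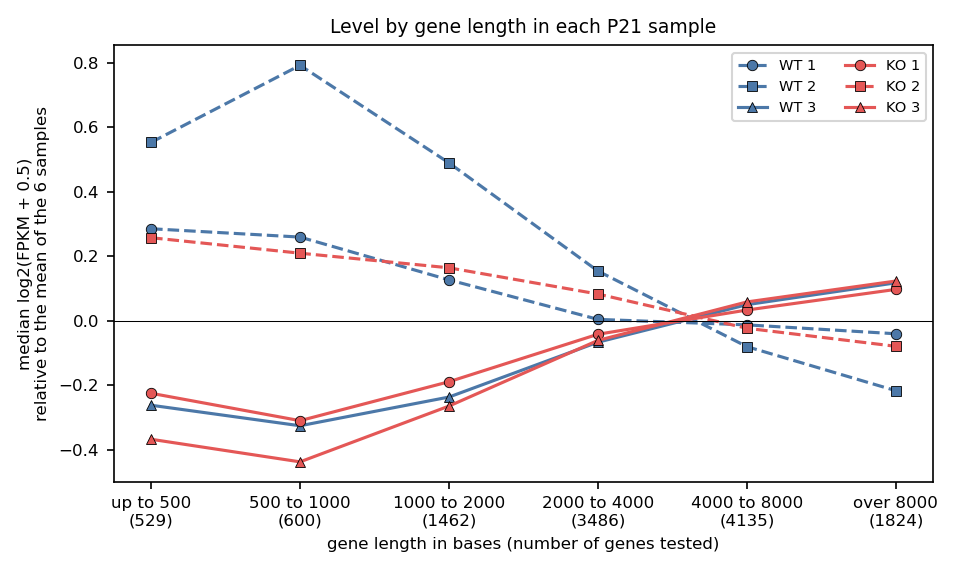
Median level of the tested genes in 6 classes of gene length (x axis, bases) in each P21 library, as log2(FPKM + 0.5) relative to the mean of the 6 libraries (y axis). Blue is wild type (WT), red is labelled knockout (KO); dashed lines are WT 1, WT 2 and KO 2, which lie above 0 in the 3 shortest classes, and solid lines are WT 3, KO 1 and KO 3, which lie below 0 there.

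Csrp3 RNA itself was not depleted in the libraries labelled knockout. Its FPKM was 1068, 1397 and 572 in the wild-type libraries against 671, 1112 and 926 in those labelled knockout, so the groups overlapped. The log2 difference was -0.10 (SE 0.50, adjusted p = 0.962, limma). It turned positive in 6 of 24 alternatives and reached 0.63 against wild-type library 3 alone. The labels do not say which part of the gene was altered, and a value for the whole gene does not show whether the transcript is intact. The genotype is for this reason written as labelled throughout. The table places Csrp3 on the minus strand of chromosome 7, from 48480146 to 48497781.

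In the limma model of the 6 libraries 0 genes passed an adjusted p of 0.05 (0% of the genes tested), and the smallest adjusted p was 0.268. At an unadjusted p under 0.05 there were 410 higher genes (3.41%) and 338 lower genes (2.81%), and voom on reads recovered from the FPKM values also called 0. A model of all 12 samples called 13 genes (0.108%), 11 higher and 2 lower. That model uses a spread shared by the P1 and P21 groups. The P1 spread was the smaller in earlier results of these data, so its p-values may be too small for P21. In 788 genes (6.55%) each library labelled knockout lay above each wild-type library, and in 651 genes (5.41%) each lay below. These shares are the background for the counts that follow. The split depended on scale: after rescaling to TPM there were 1254 above and 187 below, and the median of all genes moved from -0.02 to 0.33 on the log2 scale. Rescaling without mitochondrial genes and the 20 most abundant genes moved it to 0.35. A list median is best read against those shifts.

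The genes with the widest gap between the groups included stress and load genes of heart muscle. The 12 higher genes were chosen for this gap, so their lack of overlap is not a finding, and none passed the threshold in the 6-library model. Acta1, skeletal alpha-actin, which the newborn heart uses and the loaded adult heart reuses, had 43.3, 612 and 210 FPKM in the wild-type libraries against 2009, 1117 and 2495 in those labelled knockout. The wild-type libraries alone spanned a wide range, and the log2 difference was 3.32 (SE 0.92, adjusted p = 0.759). Pdk4, the kinase that shuts off pyruvate dehydrogenase and so favours fat over glucose as a fuel, had 33.9, 8.77 and 17.3 FPKM against 257, 85.0 and 145, a log2 difference of 3.05 (SE 0.57, adjusted p = 0.663). The lowest library labelled knockout thus stood well above the highest wild-type library.

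Fhl1 encodes a four-and-a-half LIM protein of the sarcomere that is found in stretched and hypertrophic muscle. Its FPKM was 50.3, 38.2 and 43.0 in the wild-type libraries against 106, 177 and 184 in those labelled knockout. The wild-type libraries were close together and all lay below the others. The log2 difference was 1.78 (SE 0.32, adjusted p = 0.656), with 1.69 in the long set and 2.00 in the short set. Hspb6, the small heat shock protein Hsp20, had 144, 156 and 273 FPKM against 782, 555 and 718, with a log2 difference of 1.88 (SE 0.41, adjusted p = 0.759), 1.45 in the long set and 1.88 in the short set. Both passed in the model of 12 samples, whose p-values may be too small for P21, Fhl1 with an adjusted p of 0.0165 and Hspb6 with 0.0270. Over all alternatives the adjusted p ranged from those values to 1 for both, and neither passed in any other. In the table Hspb6 overlaps Lin37, Proser3 and Mir9769, and Fhl1 overlaps Gm23258. No source used here gives the strand setting of the counting, which leaves reads of overlapping genes uncertain.

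Hspb7, another small heat shock protein of heart muscle, had 340, 370 and 490 FPKM in the wild-type libraries against 957, 846 and 924 in those labelled knockout. The log2 difference was 1.2 (SE 0.38, adjusted p = 0.759). Lmod2, leiomodin 2, which lengthens the thin filaments, had 206, 168 and 153 FPKM against 415, 366 and 348. Its log2 difference of 1.1 (SE 0.33) was 1.31 in the long set and 0.97 in the short set. Nmrk2, a muscle kinase that makes NAD from nicotinamide riboside, had 6.34, 8.58 and 10.9 FPKM against 21.8, 112 and 40.7, with library 2 labelled knockout far above the other libraries. The stress-induced transcription factor Atf3 had 4.73, 4.68 and 3.62 FPKM against 38.1, 14.0 and 10.1, with library 1 labelled knockout the highest. The phosphatase gene Dusp26 had 1.74, 0.668 and 1.49 FPKM against 3.91, 7.16 and 8.35. Pop4, a subunit of RNase P, had 4.396, 3.90 and 2.26 FPKM against 7.77, 11.7 and 7.81. All genes of this paragraph were among the 12 chosen for the gap, so the separation of their groups was set by that choice.

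**Figure D2:**
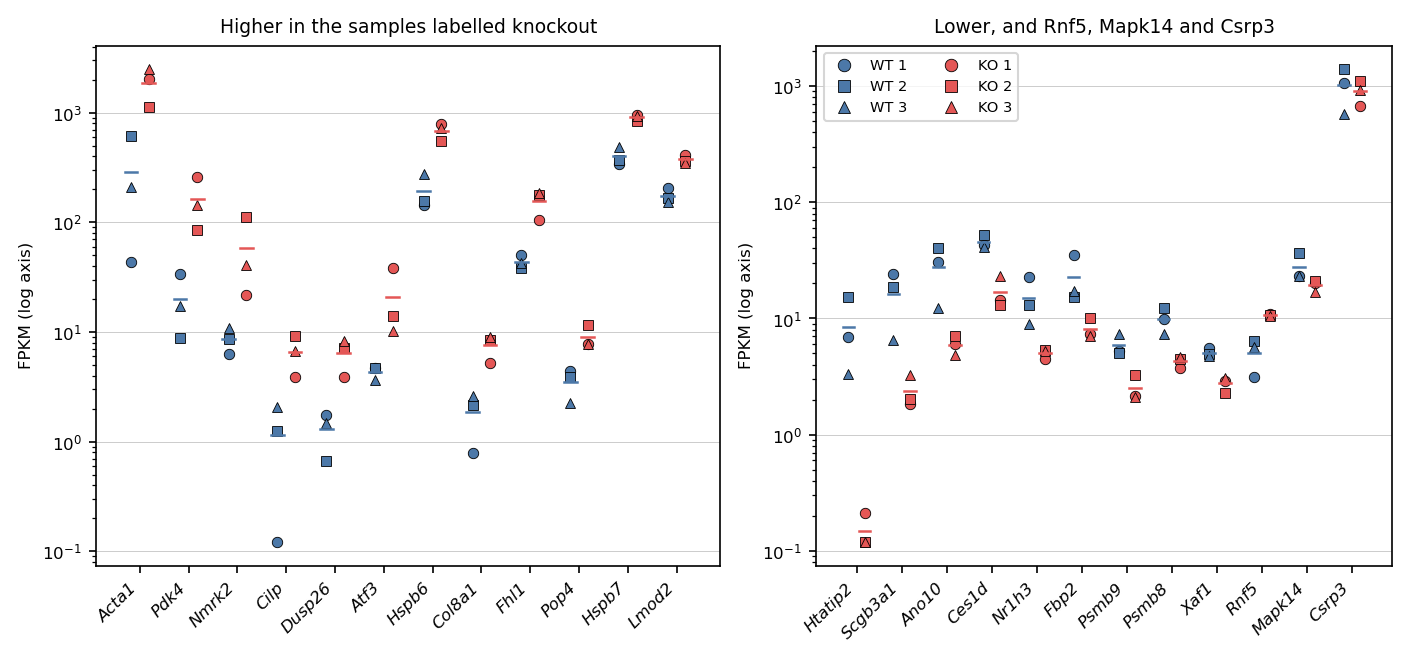
FPKM (log axis) of named genes in each P21 library, wild type (WT, blue) and labelled knockout (KO, red); each symbol is 1 library and each bar a group mean. On the left are the 12 higher genes with the widest gap; on the right are 9 lower genes chosen the same way, with Htatip2 at 0.210 or less in every library labelled knockout, followed by Rnf5, Mapk14 and Csrp3, of which Csrp3 overlaps between the groups.

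Markers of hypertrophy and wall stress, as a list, lay higher in the libraries labelled knockout. Of 29 members 28 were tested, 24 had a positive difference and 0 passed the threshold. In 13 members each library labelled knockout lay above each wild-type library, where the share over all genes was 6.55%, and in 0 members each lay below. The median log2 difference was 0.77, beside -0.02 over all genes. Relative to the mean of the 6 libraries the median member stood at -0.76, -0.27 and -0.30 in the wild-type libraries against 0.32, 0.32 and 0.81 in those labelled knockout. The groups did not overlap in this value. The median was 0.71 in the long set and 0.78 in the short set, 0.58 against wild-type library 3 alone, and 0.59 to 1.14 with 1 library left out. It was 1.17 after rescaling to TPM, where all genes stood at 0.33.

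Within that list the stretch-responsive gene Ankrd1, which encodes a muscle ankyrin repeat protein that binds titin, had 85.2, 25.2 and 23.5 FPKM in the wild-type libraries against 109, 132 and 227 in those labelled knockout. Wild-type library 1 came near the lowest of the other group, and the log2 difference was 1.99 (SE 0.55, adjusted p = 0.759). Postn, periostin, a matrix protein of activated fibroblasts, had 3.11, 8.18 and 10.9 FPKM against 16.6, 44.5 and 23.6. Nppa, atrial natriuretic peptide, which is also an atrial marker, had 185, 32.4 and 510 FPKM against 613, 764 and 1952. Its wild-type libraries differed from each other by more than wild-type library 3 differed from library 1 labelled knockout. Summed over the 18 atrial markers of the table, FPKM was 412, 267 and 1590 in the wild-type libraries against 809, 975 and 4128 in those labelled knockout. Without Nppa, which is itself 1 of them, the sum was 227, 234 and 1080 against 195, 211 and 2175, so libraries 1 and 2 labelled knockout then stood below each wild-type library and library 3 above. The list median was 0.12, and -0.48 against wild-type library 3 alone. The part of atrial tissue in the Nppa result was not tested. Nppb, brain natriuretic peptide, named after its values were seen, had 380, 210 and 93.8 FPKM against 560, 1305 and 434.

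The promoters of these load genes are shown because Tead and Srf, factors that act in stretched and hypertrophic muscle, are known to bind the MCAT motif and the CArG box. The windows hold 250 bases before and 50 bases after the RefSeq start, in GRCm38.p6, with matches in capitals and positions counted from the start.
Acta1, chr8:123894726-123895025, minus strand: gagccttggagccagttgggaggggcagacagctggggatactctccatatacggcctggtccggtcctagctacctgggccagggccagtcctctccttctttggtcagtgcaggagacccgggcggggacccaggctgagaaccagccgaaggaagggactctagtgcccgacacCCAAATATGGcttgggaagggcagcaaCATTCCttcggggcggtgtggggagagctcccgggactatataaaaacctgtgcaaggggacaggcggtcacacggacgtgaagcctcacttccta
Ankrd1, chr19:36119795-36120094, minus strand: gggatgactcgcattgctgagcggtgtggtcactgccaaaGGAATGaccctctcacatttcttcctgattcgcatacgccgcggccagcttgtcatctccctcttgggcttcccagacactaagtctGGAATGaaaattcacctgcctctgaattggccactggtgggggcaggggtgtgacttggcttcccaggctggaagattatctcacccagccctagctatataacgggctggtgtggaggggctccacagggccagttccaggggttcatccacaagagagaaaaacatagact
Fhl1, chrX:56779433-56779732, plus strand: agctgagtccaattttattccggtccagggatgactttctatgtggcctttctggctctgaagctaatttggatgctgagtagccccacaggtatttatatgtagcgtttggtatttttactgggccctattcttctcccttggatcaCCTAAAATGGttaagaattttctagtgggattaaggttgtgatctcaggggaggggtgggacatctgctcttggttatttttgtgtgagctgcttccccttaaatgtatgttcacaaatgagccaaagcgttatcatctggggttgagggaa
Acta1 holds a CArG box from base -73 and an MCAT from base -46, which do not overlap, Ankrd1 holds an MCAT from bases -210 and -123 on the other strand, and Fhl1 a CArG box from base -102 in 1 of its windows.

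The MCAT motif was searched as CATTCC on both strands. The CArG box was searched as its usual consensus, which a site meets on both strands or on neither. Of the 24 hypertrophy and wall stress genes that matched the RefSeq promoter table, 10 (41.7%) held an MCAT in at least 1 window and 5 (20.8%) a CArG box. Over the 8703 tested genes that matched, the shares were 14.4% and 1.65%. Counted by window, which allows for genes with several starts, an MCAT stood in 35.3% of the list's 34 windows and in 12.3% of all 11145 windows. A match is a description of the letters only, and the list holds known targets of these factors, so no test is given.

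Genes of the sarcomere and the Z disc were shifted less. Their counts stand beside shares over all genes of 6.55% above and 5.41% below in every library labelled knockout. Of 29 tested sarcomere genes (motor and thin filament, 34 in the list), 19 had a positive difference, 8 lay above in every library labelled knockout and 1 below, and the median log2 difference was 0.33. It was 0.30 in the long set and 0.09 in the short set. Besides Acta1 and Lmod2, the thin filament cap Tmod1 had 6.71, 9.15 and 30.9 FPKM in the wild-type libraries against 36.2, 31.2 and 44.8 in those labelled knockout, where wild-type library 3 nearly reached the other group. Lmod3, a leiomodin of striated muscle, had 23.2, 46.9 and 36.6 FPKM against 56.6, 65.2 and 51.4. Of 25 tested Z disc genes 5 lay above in every library labelled knockout and 0 below, with a median of 0.23 that was 0.08 without wild-type library 3. Their smallest p values were those of Pdlim5, a PDZ and LIM protein, with 51.8, 66.3 and 84.1 FPKM against 105, 135 and 106, and of Synpo2l, with 21.4, 37.3 and 37.8 against 55.6, 42.7 and 75.1. None of these genes passed.

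Among LIM genes related to Csrp3, 21 were tested, 3 lay above and 2 below in every library labelled knockout, and the median of 0.17 was -0.01 and 0.31 without wild-type libraries 1 and 2 and 0.08 without library 2 labelled knockout. Over all genes 6.55% lay above and 5.41% below in every library. Pdlim4 lay below, at 9.28, 12.5 and 9.68 FPKM in the wild-type libraries against 4.35, 7.90 and 7.17 in those labelled knockout. Crip1, a small LIM protein, had 109, 212 and 38.4 FPKM against 27.1, 60.0 and 30.7, and its groups overlapped. Of 19 tested small heat shock and chaperone genes, 1 lay below and 3 above in every library. Those above were Hspb6, Hspb7 and Dnajb4 (6.61, 8.72 and 8.70 FPKM against 14.3, 13.4 and 11.5). The median of that list was 0.17, and with 1 library left out it ran from -0.17 (without wild-type library 1) to 0.30 (without wild-type library 2), so it had no firm direction.

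Genes of the extracellular matrix lay higher in the libraries labelled knockout, though less so against wild-type library 3. Of 21 collagen genes 17 were tested, 16 had a positive difference and 5 lay above in every library, with a median log2 difference of 0.81. That median was 0.40 in the long set, 0.79 in the short set 0.24 against wild-type library 3 alone and 0.48 without wild-type library 1. Of 42 tested matricellular, proteoglycan and elastic fibre genes, 35 had a positive difference and 15 lay above in every library, with a median of 0.49, 0.27 in the long set, 0.65 in the short set and 0.27 without wild-type library 1. The share of members above was 6.55% over all genes, and 0 members of either list lay below. None passed the threshold.

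Col8a1, a short-chain collagen of vessels and of injured tissue, had 0.791, 2.14 and 2.61 FPKM in the wild-type libraries against 5.21, 8.41 and 9.01 in those labelled knockout (log2 difference 1.84, SE 0.38, adjusted p = 0.744). The fibril collagen gene Col1a2 had 10.6, 18.7 and 25.1 FPKM against 35.2, 36.1 and 52.9, and Col14a1, a fibril-associated collagen, had 1.49, 3.05 and 4.25 against 6.96, 6.32 and 7.92. Wild-type library 1 was the lowest of the 6 in all 3 genes and wild-type library 3 the nearest to the other group. Cilp, a cartilage-type matrix protein that cardiac fibroblasts also make, had 0.121, 1.25 and 2.08 FPKM against 3.88, 9.15 and 6.78 (log2 difference 2.26, SE 0.55, adjusted p = 0.759). The proteoglycan biglycan, Bgn, had 11.2, 23.7 and 31.8 FPKM against 48.8, 50.9 and 67.4. Ccn1, a secreted matricellular protein and target of the Hippo pathway, had 19.2, 14.2 and 30.01 FPKM against 130, 57.3 and 39.1.

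Fibroblast markers moved with the matrix lists, with which they share members. Their counts stand beside 6.55% above and 5.41% below over all genes. Of 20 tested, 15 had a positive difference, 6 lay above in every library and 0 below, and the median was 0.45, 0.29 in the long set, 0.56 in the short set and 0.23 without wild-type library 1. The median member separated the groups, at -0.80, -0.12 and -0.01 in the wild-type libraries against 0.10, 0.20 and 0.44 in those labelled knockout, relative to the 6-library mean. Summed FPKM of the list did not separate the groups, at 2051, 1959 and 1646 in the wild-type libraries against 1631, 1679 and 2291 in those labelled knockout. Mfap4, a microfibril protein, had 7.12, 23.8 and 34.7 FPKM against 56.0, 74.1 and 63.2. In bulk tissue, more fibroblasts and more RNA of these genes per cell cannot be told apart.

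**Figure D3:**
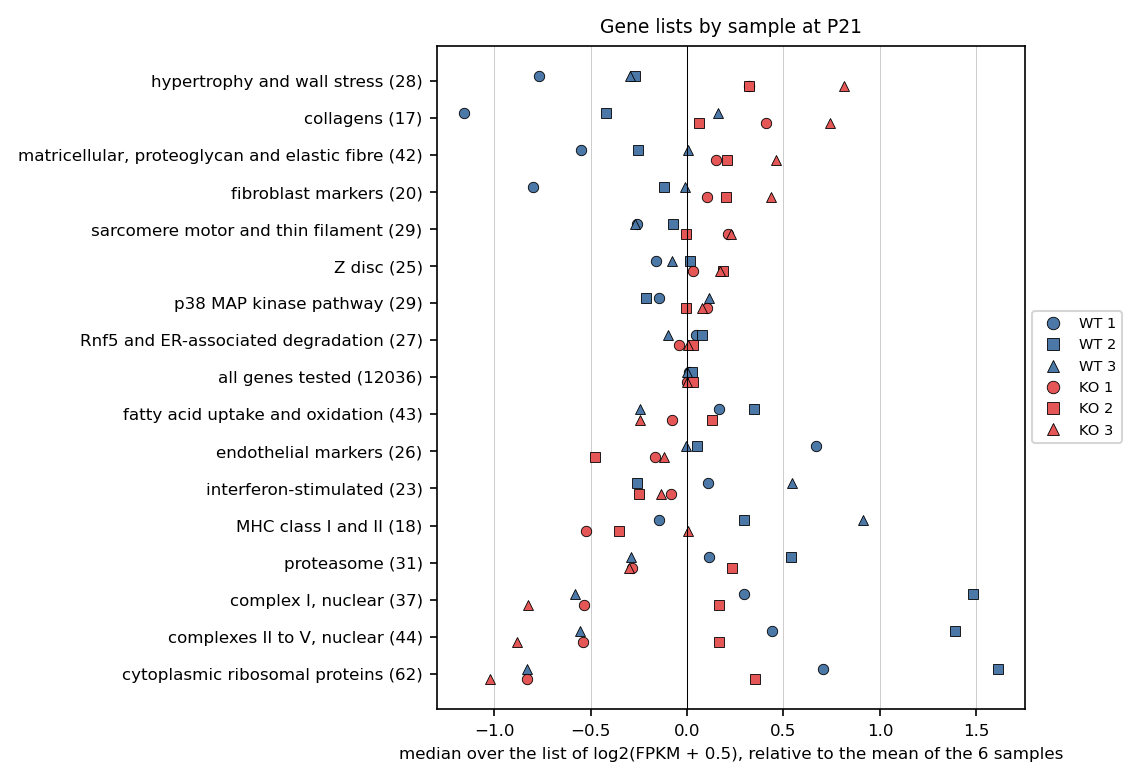
Median of each gene list in each P21 library, as log2(FPKM + 0.5) relative to the mean of the 6 libraries (x axis), with the number of genes tested in brackets. Wild type (WT) is blue and labelled knockout (KO) red. The hypertrophy, matricellular, fibroblast, sarcomere and Z disc lists separate the groups with KO higher, narrowly so for Z disc (WT 2 at 0.016, KO 1 at 0.032). Endothelial markers separate them with KO lower. The collagen list does not separate them (WT 3 at 0.16, KO 2 at 0.06). The respiratory complex and ribosomal lists place KO 2 between WT 1 or WT 2 and WT 3, KO 1 and KO 3.

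Fuel genes differed one by one rather than as a group. Of 43 tested genes of fatty acid uptake and oxidation, 19 had a positive and 24 a negative difference. In every library labelled knockout 7 lay above and 0 below, where the shares over all genes were 6.55% and 5.41%. The median of -0.08 changed sign in 6 of 24 alternatives. After rescaling to TPM it was 0.30, and without mitochondrial and the most abundant genes 0.33. All genes stood at 0.33 and 0.35 there. Besides Pdk4, Ucp3, an uncoupling protein of muscle mitochondria, had 3.33, 4.04 and 6.95 FPKM in the wild-type libraries against 24.2, 8.83 and 14.7 in those labelled knockout (log2 difference 1.58, SE 0.40, adjusted p = 0.759). Cpt1b, the muscle form of the carnitine palmitoyltransferase that admits fatty acids to mitochondria, had 1.03, 0.152 and 1.42 FPKM against 3.56, 2.57 and 2.10. Esrrg, a nuclear receptor of oxidative metabolism, had 0.873, 2.07 and 2.46 FPKM against 3.69, 4.25 and 3.17. In these 3 genes wild-type library 3 was the nearest to the other group. Pdha1, the pyruvate dehydrogenase subunit that Pdk4 phosphorylates, had 48.4, 54.2 and 102 FPKM against 121, 131 and 111.

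Among genes that lay lower, Fbp2, the muscle form of fructose bisphosphatase, had 35.1, 15.4 and 17.3 FPKM in the wild-type libraries against 7.41, 9.999 and 7.13 in those labelled knockout. Ces1d, a carboxylesterase that hydrolyses lipids, had 42.8, 51.8 and 41.0 FPKM against 14.5, 13.01 and 23.2, and its log2 difference of -1.43 (SE 0.28, adjusted p = 0.663) was -1.14 in the long set and -1.82 in the short set. Nr1h3, the sterol-sensing nuclear receptor LXR alpha, had 22.8, 12.99 and 8.87 FPKM against 4.47, 5.31 and 5.25. Ano10, a member of the anoctamin family, had 30.4, 40.4 and 12.3 FPKM against 6.02, 7.03 and 4.84, and the secretoglobin gene Scgb3a1 had 24.0, 18.6 and 6.51 against 1.85, 2.01 and 3.23. Wild-type library 3 was the lowest of its group in the last 3. These genes were chosen for the gap between the groups, and none passed in the 6-library model.

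Other lower genes of the 12 with the widest gap were small RNAs. The mitochondrial transfer RNA gene mt-Ti had 69.2, 39.7 and 40.2 FPKM in the wild-type libraries against 14.8, 5.23 and 7.004 in those labelled knockout, from 37, 16 and 37 reads against 12, 3 and 6. Its neighbour on the other strand, mt-Tq, had 30.9, 26.5 and 36.9 FPKM against 16.8, 10.2 and 15.9, and SNORA2C, a small nucleolar RNA, had 4, 10 and 12 reads against 2, 0 and 0. The mitochondrial ribosomal RNA mt-Rnr2 also lay below, at 8986, 10591 and 3313 FPKM against 1954, 2467 and 1375. Of 34 tested genes of the mitochondrial chromosome 5 lay below (14.7%) and 0 above, where the shares over all genes were 5.41% and 6.55%. Over the 15 tested genes of the list of mitochondrially encoded genes the median was -0.10, with 2 below and 0 above. After rescaling to TPM the median was 0.28, and without mitochondrial and the most abundant genes 0.32. All genes stood at 0.33 and 0.35 there.

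The lower gene with the widest gap was Htatip2, an oxidoreductase also known as TIP30. Its FPKM was 6.89, 15.3 and 3.33 in the wild-type libraries against 0.210, 0.119 and 0.119 in those labelled knockout, from 108, 181 and 90 reads against 5, 2 and 3. The log2 difference was -3.56 (SE 0.49, adjusted p = 0.3), with -2.53 in the long set and -4.13 in the short set. Having been chosen for its gap, and having reached the level for testing through the wild-type libraries alone, it had to differ, and its calls are given as a description. It passed in 3 of 22 alternatives, with an adjusted p of 0.00517 in the model of 12 samples and a range of 0.00517 to 1. Htatip2 lies 911 kb from Csrp3 on chromosome 7, from 49408863 to 49423723. Within 1 Mb of Csrp3 4 other genes were tested, and Htatip2 and the arginine methyltransferase gene Prmt3 lay below in every library labelled knockout. Prmt3 had 2.88, 2.91 and 2.10 FPKM against 1.35, 1.51 and 1.79. Within 5 Mb 12 of 89 genes lay below and 3 above, where the shares over all genes were 5.41% and 6.55%.

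Genes of antigen presentation and of the interferon response lay lower in the libraries labelled knockout, most of all against wild-type library 3. Their counts stand beside 5.41% below and 6.55% above in every library over all genes. Of 22 genes of MHC class I and II 18 were tested, all 18 had a negative difference, 4 lay below in every library and 0 above, and the median log2 difference was -0.57. That median was -1.25 in the long set, -0.26 in the short set and -0.10 without wild-type library 3, which was the library in which the list stood highest (median 0.91 relative to the 6-library mean, against -0.15 and 0.29 in wild-type libraries 1 and 2). After rescaling to TPM it was -0.21, where all genes stood at 0.33. Of 23 tested interferon-stimulated genes 17 had a negative difference and 5 lay below in every library, with a median of -0.21. After both rescalings that median was 0.08, where all genes stood at 0.33 and 0.35. It was 0.03 without wild-type library 3, -0.43 and -0.39 without wild-type libraries 1 and 2, and -0.34 without library 3 labelled knockout. None of these genes passed.

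Psmb8 and Psmb9, catalytic subunits of the immunoproteasome whose genes both lie in the MHC region, had the smallest p values of the first list. Psmb8 had 9.85, 12.3 and 7.42 FPKM in the wild-type libraries against 3.78, 4.49 and 4.65 in those labelled knockout (log2 difference -1.09, SE 0.24, adjusted p = 0.759), and Psmb9 had 5.25, 5.05 and 7.41 against 2.14, 3.29 and 2.09. Tapbp, tapasin, which loads peptides onto class I molecules, had 30.5, 33.2 and 29.2 FPKM against 21.3, 15.4 and 19.2. The interferon-induced genes Ifi47, a GTPase, and Rsad2, viperin, had 1.98, 1.52 and 2.00 FPKM against 0.482, 0.389 and 0.586, and 5.39, 3.63 and 5.49 against 2.79, 1.28 and 1.62. Xaf1 had 5.53, 4.96 and 4.73 FPKM against 2.90, 2.29 and 3.09. The groups did not overlap in any of these 6 genes, and Ifi47 was tested only through the wild-type libraries. Psmb8, Psmb9 and Xaf1 were among the lower genes chosen for the gap, so in them this was set by that choice. Of 18 tested macrophage markers 10 had a negative difference, 3 lay above in every library and 0 below, and the median of -0.11 was 0.26 without wild-type library 2 and 0.11 without library 1 labelled knockout, while the 5 tested lymphocyte and neutrophil markers all had a negative difference with a median of -0.69, and -0.42 without wild-type library 2. Over all genes 6.55% lay above in every library and 5.41% below. The part of immune cells in these lists was not tested.

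Rnf5, the membrane-anchored ubiquitin ligase named in the title of the series, lay higher in the libraries labelled knockout. Its FPKM was 3.13, 6.46 and 5.66 in the wild-type libraries against 11.02, 10.8 and 10.4 in those labelled knockout, from 36, 56 and 112 reads against 192, 133 and 192. The latter were tightly grouped above all wild-type libraries, with a log2 difference of 1.06 (SE 0.28, limma adjusted p = 0.759). The difference was 0.87 in the long set and 1.17 in the short set and 0.78 to 1.45 over 24 alternatives, in which it passed in 0. Of 27 tested genes of ER-associated degradation, 2 lay above in every library, Rnf5 among them, and 2 below. These counts are near the shares over all genes, 6.55% and 5.41%. The list had a median of -0.06 that changed sign in 6 of 24 alternatives.

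Mapk14, which encodes p38 alpha, had 23.1, 36.8 and 23.1 FPKM in the wild-type libraries against 20.1, 20.9 and 16.99 in those labelled knockout. All of the latter lay below, but the gap was small beside the height of wild-type library 2. The log2 difference was -0.48 (SE 0.26, limma adjusted p = 0.759). After rescaling without mitochondrial and the most abundant genes it was -0.07, where all genes stood at 0.35. Map2k6, the kinase MKK6 that activates p38, had 1.35, 0.745 and 1.09 FPKM against 2.62, 2.66 and 2.85. Its log2 difference of 1.06 (SE 0.25, limma adjusted p = 0.759) was 1.03 in the long set and 1.06 in the short set. Mapkapk3, a kinase that p38 activates, had 4.70, 9.63 and 6.78 FPKM against 3.49, 4.45 and 4.03. Of 29 tested genes of the p38 pathway 2 lay above and 2 below in every library, with a median of 0.13 that was 0.07 and 0.27 without wild-type libraries 2 and 3 and 0.08 without library 1 labelled knockout. The counts of this list are near the shares over all genes, 6.55% above and 5.41% below. Messenger RNA levels do not measure kinase activity.

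Immediate early genes were mixed. The counts here and for the Hippo list stand beside 6.55% above and 5.41% below in every library over all genes. Of 23 tested 14 had a positive difference, 4 lay above in every library and 1 below, and the median was 0.45, which was 0.15 without library 1 labelled knockout and 0.23 and 0.30 without wild-type libraries 1 and 2. Beside Atf3 and Ccn1, Jun, a subunit of the AP-1 factor, had 14.2, 12.3 and 16.8 FPKM in the wild-type libraries against 54.1, 27.9 and 26.9 in those labelled knockout. Library 1 labelled knockout was the highest of the 6 in all 3 of these genes. Ier5 had 18.1, 22.8 and 14.6 FPKM against 37.4, 28.3 and 24.4. Of 22 tested Hippo pathway genes 4 lay above and 2 below, with a median of 0.28 that was -0.08 against wild-type library 3 alone and 0.16 and 0.18 without wild-type libraries 1 and 2. The targets Ankrd1, Ccn1 and Ccn2 had the smallest p values of that list, and Ccn2, connective tissue growth factor, had 69.4, 17.6 and 19.6 FPKM against 90.6, 71.8 and 100.2.

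Growth factor genes of the IGF and neuregulin pathways had 5 of 15 tested members above in every library and 0 below. The shares over all genes were 6.55% and 5.41%. Their median of 0.26 was 0.41, 0.05 and 0.45 without wild-type libraries 1, 2 and 3 and 0.09 without library 3 labelled knockout. Igf1 had 1.41, 2.37 and 2.53 FPKM in the wild-type libraries against 3.16, 2.99 and 4.21 in those labelled knockout, and Hbegf, a ligand of the ErbB receptors, had 3.18, 3.18 and 4.26 against 5.05, 6.05 and 6.25. The list held 1 gene at an unadjusted p under 0.05, Hbegf (log2 difference 0.64, SE 0.21, adjusted p = 0.759). Among cardiac transcription factors Tbx20 had 1.47, 1.57 and 5.14 FPKM against 6.14, 5.62 and 7.92. Wild-type library 3 stood with the other group there, and the log2 difference of 1.30 was 0.41 in the long set.

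Of 40 mitosis and cytokinesis genes 4 reached the level for testing, and 0 of these lay above or below in every library. For this and the next lists the shares over all genes were 6.55% above and 5.41% below. Of 40 replication genes 18 were tested, 4 above and 0 below in every library. Their median of 0.10 was 0.30, 0.15 and -0.04 without wild-type libraries 1, 2 and 3 and 0.25 without library 3 labelled knockout. Of 28 cyclins and cell cycle inhibitors 25 were tested, 3 above and 1 below, and the median of 0.20 was 0.12 without wild-type library 2 and 0.10 without library 3 labelled knockout. The replication helicase genes Mcm3 and Mcm4 had 1.204, 0.821 and 1.16 FPKM in wild type against 2.54, 1.89 and 2.83, and 2.19, 1.05 and 1.29 against 2.54, 2.55 and 2.74. Mcm3 differed by 0.90 on the log2 scale (SE 0.26, adjusted p = 0.759), with 0.94 in the long set and 0.67 in the short set. Ccnd1, cyclin D1, had 1.04, 1.38 and 9.46 FPKM against 13.8, 8.16 and 9.78, so wild-type library 3 stood within the other group.

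Nuclear genes of the respiratory complexes and of the ribosome had negative medians that turned positive against wild-type library 3 alone. Over all genes 5.41% lay below and 6.55% above in every library labelled knockout. Of 37 tested complex I genes 35 had a negative difference, with a median of -0.75, yet 0 lay below in every library and 0 above. For 44 genes of complexes II to V the median was -0.77 with 0 below and 1 above. For 62 cytoplasmic ribosomal genes it was -0.97 with 0 below and 0 above. Against wild-type library 3 alone the 3 medians were 0.15, 0.14 and 0.33. In the long set they were -0.14, -0.10 and -0.08, and in the short set -0.68, -0.67 and -0.78. Per library the ribosomal median stood at 0.70, 1.61 and -0.83 in the wild-type libraries against -0.83, 0.35 and -1.02 in those labelled knockout, with wild-type library 3 level with library 1 labelled knockout. Without wild-type library 2 the 3 medians were -0.28, -0.31 and -0.45, and without wild-type library 3 they were -1.19, -1.27 and -1.62. With the trend on gene length removed they were -0.57, -0.61 and -0.89. As an example, Ndufa3 of complex I had 1471, 2668 and 321 FPKM in the wild-type libraries against 303, 598 and 210 in those labelled knockout.

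**Figure D4:**
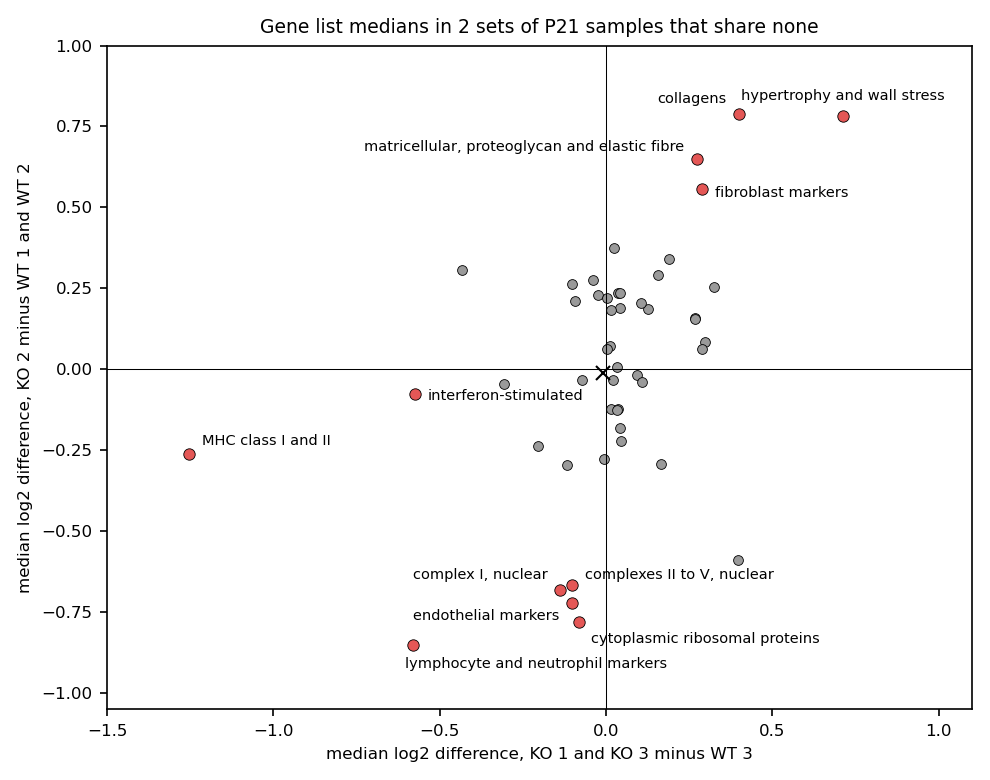
Median log2 difference of each gene list in the long set (x axis, KO 1 and KO 3 minus WT 3) and in the short set (y axis, KO 2 minus WT 1 and WT 2), libraries labelled knockout (KO) minus wild type (WT); the cross is all genes tested, and red points are the lists named beside them. The hypertrophy list lies at 0.71 on the x axis and 0.78 on the y axis, MHC genes lie at -1.25 on the x axis and -0.26 on the y axis, and the ribosomal and respiratory lists lie low on the y axis only.

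Endothelial markers had a negative median of -0.42 over 26 tested genes, with 22 negative, 3 below in every library and 0 above. The shares over all genes were 5.41% and 6.55%. The list's summed FPKM was 5309, 2738 and 1879 in the wild-type libraries against 1649, 1830 and 1636 in those labelled knockout, so wild-type library 1 stood far above the rest. The median was -0.10 in the long set, -0.72 in the short set and -0.17 without wild-type library 1. After rescaling to TPM it was -0.06 and without mitochondrial and the most abundant genes -0.02, where all genes stood at 0.33 and 0.35. Emcn, endomucin, had 20.6, 31.5 and 15.7 FPKM in the wild-type libraries against 10.4, 12.98 and 10.6 in those labelled knockout. Among smooth muscle and pericyte markers, Cnn1, calponin, had 0.472, 0.7502 and 0.520 FPKM against 1.87, 2.11 and 2.21, with a log2 difference of 1.25 (SE 0.28, adjusted p = 0.759) that was 1.31 in the long set and 1.24 in the short set. Cnn1 was tested only through the libraries labelled knockout, being under 1 FPKM in each wild-type library. The list's median of 0.22 was -0.10 against wild-type library 3 alone, 0.04 and 0.08 without wild-type libraries 1 and 2, and 0.04 and 0.10 without libraries 1 and 3 labelled knockout. Lyve1, 1 of the 3 macrophage markers that lay above, which marks resident cardiac macrophages and lymphatic vessels, had 3.45, 4.22 and 5.72 FPKM against 7.08, 8.46 and 9.49.

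Further lists held single genes in which the groups did not overlap. Such genes are common, since 6.55% of all genes lay above and 5.41% below in every library labelled knockout. A few in a list are thus no finding about the list. Arntl, the clock factor BMAL1, had 3.07, 2.11 and 1.71 FPKM in the wild-type libraries against 0.939, 1.02 and 0.921 in those labelled knockout, and the clock repressors Bhlhe40 and Bhlhe41 lay above, Bhlhe40 at 8.94, 8.72 and 10.8 against 13.3, 13.5 and 16.3. The labels give no time of day for sampling. Among 33 tested antioxidant genes the glutathione transferases Gstm2 (54.4, 49.7 and 33.7 FPKM against 23.5, 18.4 and 22.7) and Gsta3 lay below, with 3 below and 0 above in all. Gsta3 was tested only through the wild-type libraries. Among calcium handling genes 5 of 25 lay above and 0 below, with a median of 0.16 that was 0.08 and 0.30 without wild-type libraries 1 and 3 and 0.09 without library 1 labelled knockout. Of these, Casq1, the skeletal muscle calsequestrin, had 9.92, 82.8 and 155 FPKM against 216, 161 and 378, and Camk2d, the main calmodulin kinase of heart muscle, had 5.76, 6.07 and 7.36 against 9.26, 8.53 and 9.29. Cdh2, the cadherin of the intercalated disc, had 9.57, 11.05 and 16.1 FPKM against 20.3, 21.4 and 20.8 (log2 difference 0.78, SE 0.24, adjusted p = 0.759). None of these genes passed.

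The genes called in the model of 12 samples also included Dusp26 among the higher and Ly6g5b beside Htatip2 as the lower. Ly6g5b, a gene of the MHC region, had 24, 9 and 20 reads in the wild-type libraries against 0, 0 and 1 in those labelled knockout, and was tested only through the wild-type libraries. A further 7 are processed pseudogenes, small RNA genes and an unnamed long noncoding RNA with 0 to 8 reads in each wild-type library. All 7 had 0 reads in wild-type libraries 1 and 2, so they reached the level for testing through the libraries labelled knockout. Their calls are given as a description. The pseudogene Ldha-ps2 had 0, 0 and 5 reads in the wild-type libraries against 57, 72 and 51 in those labelled knockout, while Ldha had 401, 783 and 335 FPKM against 302, 502 and 279. Reads of a pseudogene and of its near-identical parent may have been shared in counting. Mir7052, a microRNA gene of 65 bases inside Josd2, had 0, 0 and 1 reads against 8, 13 and 22, with Josd2 at 38.6, 64.8 and 40.4 FPKM against 52.0, 77.7 and 48.5.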

How the data were processed

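The authors deposited 1 table of FPKM values for 56748 genes of 12 mouse heart samples. The labels' protocols name the miRNeasy micro kit for extraction of total RNA and the Ovation Ultralow V2 kit for the libraries. Tools listed by the submitters' processing notes are TopHat2 2.0.13, featureCounts, Subread, edgeR and FastQC. No source used here gives the build of the table or whether counting used strand, and positions are those of the table.

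Columns were matched to samples by library name. FPKM times gene length was a whole multiple of 1 step per library for 100% of values (within 0.05 reads), which gave reads per gene and 9.67 to 15.1 M reads per P21 library. Genes that reached an FPKM of 1 in 3 or more P21 libraries were fitted as log2(FPKM + 0.5) with limma 3.58.1 in R 4.3.3 (trend and robust moderation, Benjamini-Hochberg over all genes tested, threshold 0.05). This scale understates differences of genes with low values. The fit was tested on simulated data. The comparison, the gene lists and the tests were chosen with earlier results of these data known, so lists are described by counts and medians with no set test. Named genes were Csrp3, Rnf5 and Mapk14, the 12 higher and 12 lower genes with the widest gap between groups (gene models, pseudogenes and microRNAs left out, mean FPKM in the higher group 5 or more), those past the threshold in the 6- or 12-sample model, and up to 4 members per list with the smallest p; others were chosen after their values were seen. Alternatives were other pseudocounts, filters, scalings, models, gene length, sex and left-out libraries, and the long and short sets, which were chosen after seeing the data. Promoters are from RefSeq (GRCm38.p6), matched by symbol. Some items are not reported here.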

Additional observations from a re-analysis of the deposited data

How the results depend on the processing

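No gene passed the adjusted threshold in the 6-library limma model, and 4 passed after rescaling without mitochondrial and top genes, 13 in the model of all 12 samples, 3 with the replicate number as a block, and 0 to 9 with 1 library left out, with 9 only without wild-type library 3. The labels do not say whether the numbers pair the samples. Correlations of same-numbered deviations were 0.05, 0.55 and 0.40, each the highest for its wild-type library. Those of the other pairs ran from -0.51 to 0.26. Pairing was not tested, and the block is given only as an alternative. Genes above in every library labelled knockout, 788, became 1350 with no filter, 433 at an FPKM of at least 5, 1254 after rescaling to TPM, 2808 against wild-type library 3 alone, 4075 in the long set, 3574 in the short set and 1092 to 2171 with 1 library left out. Genes below, 651, became 344 at an FPKM of at least 5, 187 after rescaling to TPM, 211 after rescaling without mitochondrial and top genes, 2711 against wild-type library 3 alone, 4261 in the long set, 3938 in the short set and 903 to 2412 with 1 library left out. Fewer libraries make a lack of overlap easier to reach. The cause of the other moves was not tested. The sex covariate, set from Xist, sets library 2 labelled knockout alone against the other 5 and so gave the same fit as leaving it out. Of the list medians under the alternatives 1002 moved by less than the spread between replicates and 174 by more. Genes with few reads, among them the small RNAs and pseudogenes, are limited by depth.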
